A study of Mus musculus with 5 samples.

Results

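The genes described here write, copy and remove DNA methylation, or supply the removing enzymes with their substrate: Dnmt1, Dnmt3a, Dnmt3b, Dnmt3l, Uhrf1, Tet1, Tet2, Tet3, Idh1 and Idh2. They were chosen by name, with earlier results of these data known, and all 10 were found among the 31626 genes of the deposited tables. Of these, 9 carry their symbol in the files. The row of Tet2 (ENSMUSG00000040943) is listed under a clone-based name and was matched by its gene ID in GENCODE M21. Tet1 has 2 rows, and the values given are those of the row whose gene ID is in GENCODE M21 (ENSMUSG00000047146). Every one of the 10 genes passed the filter of at least 1 FPKM in at least 2 libraries. FPKM scales the fragments of a gene by its length and by the mapped fragments of the library, so levels of different genes can be set side by side per length.

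Expression was measured in 5 RNA-seq libraries of mouse common myeloid progenitors, the marrow cells from which granulocytes, monocytes, erythroid cells and megakaryocytes descend. All cells came from C57Bl/6 mice with loxP-flanked Mll1 alleles, were transformed with a retrovirus carrying MN1 and GFP, and grew in methylcellulose medium with serum, IL3, IL6 and SCF. The 3 control libraries are of cells transduced with a control vector, in which Mll1 is intact, and the 2 knockout libraries (Mll1 -/-) of cells transduced with Cre, all sorted at day 7. Mll1, now called Kmt2a, codes for an enzyme that methylates lysine 4 of histone H3, and the comparison asks how gene expression differs after its deletion. MN1 transformation limits the cells as a model of normal progenitors, and Cre exposure and loss of Mll1 cannot be told apart, because cells with wild-type Mll1 given Cre were not analysed here. The labels do not say whether libraries came from separate mice or cultures, so a p-value here reflects the spread of these libraries alone, which may be technical.

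Methyl groups are placed on cytosines of CpG pairs by DNA methyltransferases. Dnmt3a and Dnmt3b set new marks, Dnmt3l has no catalytic activity of its own and stimulates both, and Dnmt1, brought to newly copied DNA by Uhrf1, restores the pattern after replication. The TET enzymes oxidise 5-methylcytosine with 2-oxoglutarate as co-substrate, which starts its removal. Idh1 in the cytosol and Idh2 in mitochondria make 2-oxoglutarate, and several of these genes, among them DNMT3A, TET2, IDH1 and IDH2, are recurrently mutated in human myeloid leukaemia.

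Mll1, the gene targeted for deletion, had its 2 lowest values in the knockouts but was not called. It measured 9.67, 7.28 and 7.19 FPKM across controls, listed from replicate 1 to 3 as in every such sentence here, against 6.22 and 5.32 FPKM across knockouts (limma adjusted p = 0.158; two-sided exact permutation p = 0.1, the smallest that 10 splits allow). Which exons lie between the loxP sites is not given in the sources used here, and a gene-level FPKM also counts exons outside them. Whether the deletion was complete in all cells cannot be told from these values. All 8 progenitor markers were detected in every library, the lowest in the knockouts being Flt3, at 93.3, 96.3 and 83.5 FPKM across controls and 9.51 and 7.69 FPKM across knockouts, and Runx1, between 18.3 and 23.4 FPKM. Of 8 lymphoid markers, Cd3g, Cd8a and Pax5 were listed at 0 in all 5 libraries and none exceeded 0.513 FPKM. Control replicate 1 stood apart from the other controls in mature neutrophil genes: the 10 markers summed to 6409 FPKM there, to 794 and 1054 FPKM in the other controls, and to 22416 and 20684 FPKM across knockouts. S100a8 and S100a9 made up 80.4% to 98.1% of that sum in each library. Ngp, Camp and Ltf were higher in control replicate 1 than in any other library, Mmp8 was lowest there, and of the 9 neutrophil markers tested only Lcn2 was called. Control replicate 1 stood apart in other genes as well. The monocyte and macrophage markers summed to 393 FPKM there, to 129.9 and 111 FPKM in the other controls, and to 389.7 and 357 FPKM across knockouts. The methyl donor gene Shmt2 stood at 183 FPKM there and at 503 and 505 FPKM in the other controls. Over the same libraries the 8 progenitor markers summed to 1341, 1136 and 1108 FPKM across controls and 741 and 709 FPKM across knockouts (Gata2 and Spi1 rose, Cd34 and Flt3 fell), and the 6 mast cell and basophil markers to 495, 698 and 634 FPKM and 1058 and 1076 FPKM. The largest part of the progenitor sum in every library was Cd34. Most of the mast cell and basophil sum was Cpa3, which was not called. Mcpt8 and Il1rl1 rose, and Ms4a2 was between 22.3 and 35.2 FPKM in every library. Of 7 erythroid markers tested, Gata1, Klf1, Alas2 and Car1 rose, while Epor, Hba-a1 and Hbb-b1 were not called. Of 8 monocyte and macrophage markers tested, Ccr2 and Irf8 fell, but the median log2 change was 0.423. Ly6c1, Ly6c2 and Cd14 were higher in both knockouts than in any control without being called, and Adgre1, Cd68 and F13a1 overlapped. In such bulk libraries, fewer cells of a type and less RNA per cell cannot be told apart. Absolute depth is unknown; 1 read was worth between 0.980 and 1.018 times as much in the other libraries as in control replicate 1.

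At a limma adjusted p under 0.05, Mll1 knockout libraries had 1 of the 10 genes raised and 1 lowered. Both belong to the de novo methylation group: Dnmt3b fell 1.75-fold and Dnmt3l rose 2.75-fold in mean FPKM. The background over 11780 tested genes was 3.82% rising and 5.97% falling (9.79% called in all), so 2 of 10 genes is not a share from which anything particular to them can be read. The median log2 change of the 10 genes was -0.084, beside -0.028 over all genes tested. Knockout and control values did not overlap for 8 of the 10 genes, beside 52.4% of all genes tested. Knockouts were the higher group for Dnmt3l, Uhrf1, Tet3 and Idh1 (4 of 10, beside 22.9% of all genes) and the lower group for Dnmt3b, Tet1, Tet2 and Idh2 (4 of 10, beside 29.4%).

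The promoters of the 2 called genes are shown because the genes moved in opposite directions and their start regions differ in CpG content, the sequence that DNA methyltransferases act on and that the CXXC domain of MLL1 binds when unmethylated. The sequences are from RefSeq (GRCm38.p6), whose build is newer than the mm9 of the submitters' processing notes, and run from 250 bases before to 50 after an annotated start, 5′ to 3′ on the gene's strand, with each CpG in capitals. Dnmt3b has 1 annotated start in this table, at chr2:153649199-153649498 on the + strand. Dnmt3l has 3, and the most upstream is shown, at chr10:78042037-78042336 on the + strand.
Dnmt3b: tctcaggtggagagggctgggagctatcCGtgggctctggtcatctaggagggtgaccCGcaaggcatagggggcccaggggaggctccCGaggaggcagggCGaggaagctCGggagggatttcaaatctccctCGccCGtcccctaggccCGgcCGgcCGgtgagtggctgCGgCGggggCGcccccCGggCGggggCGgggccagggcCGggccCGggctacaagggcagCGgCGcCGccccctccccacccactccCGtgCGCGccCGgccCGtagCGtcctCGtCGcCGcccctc
Dnmt3l: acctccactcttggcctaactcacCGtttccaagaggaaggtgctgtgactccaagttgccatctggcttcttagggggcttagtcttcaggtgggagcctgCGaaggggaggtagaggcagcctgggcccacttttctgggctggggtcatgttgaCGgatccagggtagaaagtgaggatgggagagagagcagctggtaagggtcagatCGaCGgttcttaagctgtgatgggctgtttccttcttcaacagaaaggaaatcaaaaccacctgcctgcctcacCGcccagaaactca
The Dnmt3b promoter holds 30 CpG in 300 bases and is 76.0% G + C, while the Dnmt3l promoter shown holds 6 CpG and is 54.7% G + C. The other Dnmt3l starts have windows with 4 and 3 CpG. Over 32851 promoters of the same length the median was 7 CpG, 94.6% held at least 1 CpG (the letters CG, which read the same on both strands), and 88.3% held fewer than Dnmt3b. Windows of the genes not called held 17 CpG for Tet1, 57 for Tet2, 22 for Tet3 and 20 for Idh2. Listed from the most upstream start, they held 23 and 23 for Idh1, and 12 and 33 for Uhrf1. Those of Dnmt1 held 2, 12 and 33, and those of Dnmt3a 46, 47 and 18. The part of CpG number in the changes was not tested. FPKM per gene does not show which start was used, and no methylation or binding was measured in these libraries.

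Dnmt3b, one of the pair of active de novo methyltransferases, was lower in the knockouts. It stood at 25.5, 29.1 and 29.6 FPKM across controls, against 16.6 and 15.5 FPKM across knockouts. The groups did not overlap, and the gap between them (8.9 FPKM between the lowest control and the highest knockout) exceeded the spread inside either group. The mean fell from 28.1 ± 2.24 FPKM (SD, n = 3) to 16.0 ± 0.774 FPKM (SD, n = 2), a log2 change of -0.77 (SE 0.096, 95% confidence interval -1.01 to -0.52, limma adjusted p = 0.0183). Each log2 change is the knockout mean minus the control mean of log2(FPKM + 1), a scale on which changes of low genes come out smaller than they are. The summed progenitor markers were also lower in both knockouts than in any control (741 and 709 FPKM against 1108 or more). The largest part of that sum in every library was Cd34, at 685, 600 and 587 FPKM across controls and 216 and 212 FPKM across knockouts. Cd34 and Flt3 fell while Gata2 and Spi1 rose, and the part of these markers in the result was not tested. The direction held in all 15 alternatives. The call was lost with the replicate number as a block (limma adjusted p = 0.12) and held without control replicate 1 (adjusted p = 0.0055). It was lost without control replicate 2 (adjusted p = 0.0715), control replicate 3 (0.0684), knockout replicate 1 (0.179) or knockout replicate 2 (0.206), within a range of 0.0055 to 0.206 over the alternatives.

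Dnmt3l, the catalytically inactive cofactor best known from germ cells, was higher in the knockouts. It stood at 3.17, 1.59 and 2.31 FPKM across controls, against 6.58 and 6.38 FPKM across knockouts. Each knockout value was at least 2.02 times the highest control value, which was that of control replicate 1. The mean rose from 2.36 ± 0.789 (n = 3) to 6.48 ± 0.136 FPKM (n = 2), a log2 change of 1.18 (SE 0.22, 95% confidence interval 0.63 to 1.74, limma adjusted p = 0.0387). The 5 libraries had the same order from low to high in Dnmt3l as in the neutrophil genes S100a8, S100a9 and Lcn2. All of these were higher in both knockouts than in any control, which fixes much of a shared order. The order was not the same in Ngp, Camp, Ltf, Mmp8, Mmp9, Cxcr2 or Itgam. The part of these neutrophil genes in the result was not tested. Aire, which overlaps Dnmt3l on the opposite strand in GENCODE M21, was at most 0.0177 FPKM in any library. With the replicate number as a block, the call of Dnmt3l was lost (limma adjusted p = 0.124). The call held without control replicate 1 (adjusted p = 0.0109) and was lost without control replicate 2 (0.0736), control replicate 3 (0.104), knockout replicate 1 (0.27) or knockout replicate 2 (0.27), or when no filter was set (0.096), within a range of 0.0109 to 0.27 over the 14 alternatives that tested it.

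Dnmt3a, the other active de novo enzyme, was not called. It stood at 15.5, 16.4 and 15.2 FPKM across controls, against 15.4 and 14.0 FPKM across knockouts, so the groups overlapped. Its log2 change was -0.09 (95% confidence interval -0.30 to 0.12, limma adjusted p = 0.517), an interval that does not reach the change fitted for Dnmt3b. Its antisense partner Dnmt3aos was at most 0.0217 FPKM in any library. In the controls Dnmt3b made up 64.1% ± 1.97 (SD, n = 3) of the FPKM of Dnmt3a and Dnmt3b together, and in the knockouts 52.2% ± 0.476 (n = 2). The sum of both was 41.0, 45.5 and 44.7 FPKM across controls, against 32.0 and 29.5 FPKM across knockouts. The ratio of Dnmt3a to Dnmt3b within a library, which does not depend on how a library is scaled, was 0.609, 0.562 and 0.513 in the controls and 0.928 and 0.903 in the knockouts. The groups of ratios did not overlap (two-sided exact permutation p = 0.1, the smallest possible, and 0.2 when adjusted over the 4 ratios computed).

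**Figure D1:**
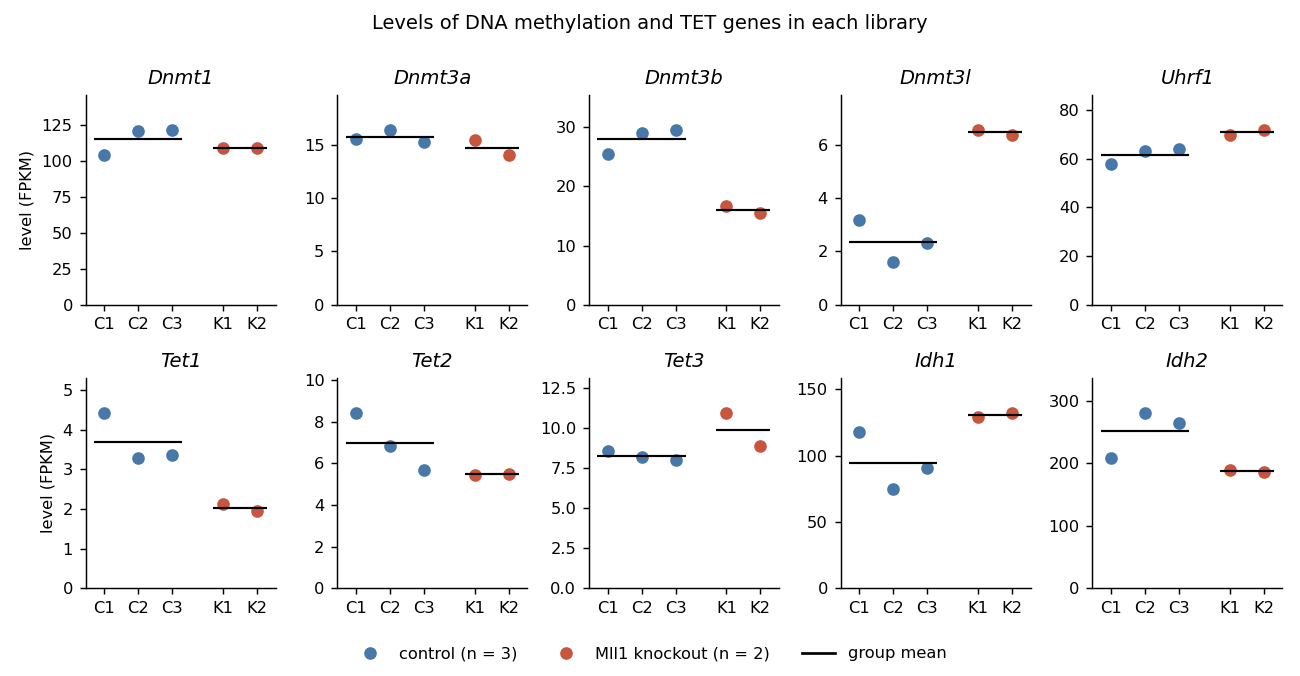
Level of each of the 10 genes in FPKM (vertical axes, each from 0) in control replicates 1 to 3 (C1 to C3, blue) and knockout replicates 1 and 2 (K1 and K2, red), with a line at each group mean. Both knockouts lie below every control for Dnmt3b (16.6 and 15.5 against 25.5 or more FPKM) and above every control for Dnmt3l (6.58 and 6.38 against 3.17 or less FPKM).

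The maintenance genes were expressed at higher levels and were not called. Dnmt1, the maintenance methyltransferase, stood at 104, 121 and 122 FPKM across controls, against 109 and 109 FPKM across knockouts, inside the range of the controls. Its log2 change was -0.077 (95% confidence interval -0.33 to 0.17, limma adjusted p = 0.646). Uhrf1, which recognises hemimethylated DNA and recruits Dnmt1, stood at 57.7, 62.9 and 64.0 FPKM across controls, against 69.6 and 71.9 FPKM across knockouts. Both knockout values of Uhrf1 were above every control, with a log2 change of 0.20 (adjusted p = 0.17). The ratio of Uhrf1 to Dnmt1 was 0.555, 0.519 and 0.525 in the controls and 0.637 and 0.657 in the knockouts, with no overlap (exact permutation p = 0.1, 0.2 adjusted over the 4 ratios).

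Dnmt1 and Uhrf1 are known to be high in S phase, so 24 S-phase genes were read beside them. None was called by limma, 6 of 24 had an unadjusted p under 0.05 (29.8% of all genes tested did), and the median log2 change of the list was 0.056, beside -0.028 over all genes. The members of smallest p were the cyclin gene Ccne1, at 22.8, 22.2 and 29.2 FPKM across controls and 37.9 and 39.3 FPKM across knockouts (limma adjusted p = 0.0537), and the replication licensing gene Cdc6, at 14.5, 14.9 and 17.1 FPKM across controls and 20.1 and 21.9 FPKM across knockouts (adjusted p = 0.0655). Relative to the control mean, the median of the list was -0.15, 0.068 and 0.093 across controls, against 0.041 and 0.072 across knockouts, so control replicate 1 was the lowest library. Control replicate 1 was also the lowest library for Dnmt1 and Uhrf1. Without it, the S-phase median was -0.031 and 3 members fell, beside 18.0% of all genes, while with all libraries and median-ratio scaling 2 members rose.

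The 3 TET genes, which encode the dioxygenases that oxidise 5-methylcytosine, were low to moderate in level, and none was called. Tet1 stood at 4.42, 3.30 and 3.37 FPKM across controls, against 2.13 and 1.94 FPKM across knockouts. The knockout values lay below every control, and the log2 change was -0.62 (95% confidence interval -1.0 to -0.25, limma adjusted p = 0.0623). The second Tet1 row of the files, whose ID is not in GENCODE M21, stood at 2.80, 1.91 and 2.26 FPKM across controls, against 1.35 and 1.10 FPKM across knockouts, lower in both knockouts as well (log2 change -0.57, adjusted p = 0.0901). Without control replicate 1, Tet1 fell (log2 change -0.52, adjusted p = 0.0249), within a range of 0.0249 to 0.358 over its 14 alternatives.

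Tet2 stood at 8.40, 6.81 and 5.69 FPKM across controls, against 5.46 and 5.48 FPKM across knockouts. The knockouts were below every control, with a gap of 0.20 FPKM to control replicate 3, and the log2 change was -0.29 (95% confidence interval -0.70 to 0.13, limma adjusted p = 0.3). Tet3 stood at 8.52, 8.19 and 8.02 FPKM across controls, against 10.9 and 8.86 FPKM across knockouts. It was the TET gene whose knockout values lay above every control, with a log2 change of 0.23 (95% confidence interval -0.05 to 0.51, adjusted p = 0.239). Tet2 overlaps an antisense gene in GENCODE M21 that was not analysed here, and the use of strand in the counting is not given in the sources used here.

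The summed level of the 3 TET genes was 21.3, 18.3 and 17.1 FPKM across controls, against 18.5 and 16.3 FPKM across knockouts, so the sums overlapped. Within that sum the share of Tet1 was 19.5% ± 1.36 (SD, n = 3) in the controls and 11.7% ± 0.264 (n = 2) in the knockouts, and the share of Tet3 was 43.9% ± 3.60 and 56.6% ± 3.17. The sum and shares leave out the second Tet1 row, so the share of Tet1 is uncertain. The ratio of Tet2 to Tet3 was 0.985, 0.832 and 0.709 in the controls and 0.502 and 0.619 in the knockouts. These ratios did not overlap, with an exact permutation p of 0.2, also 0.2 adjusted over the 4 ratios.

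Idh1 and Idh2, the NADP-dependent isocitrate dehydrogenases, differed in direction, and neither was called with all 5 libraries and no scaling beyond the deposited FPKM. Idh1, the cytosolic enzyme, stood at 118, 74.8 and 90.5 FPKM across controls, against 129 and 132 FPKM across knockouts (log2 change 0.49, 95% confidence interval -0.01 to 0.99, limma adjusted p = 0.177). Idh2, the mitochondrial enzyme, stood at 208, 280 and 265 FPKM across controls, against 190 and 186 FPKM across knockouts (log2 change -0.40, 95% confidence interval -0.78 to -0.02, adjusted p = 0.15). In both genes control replicate 1 was the control nearest to the knockouts. Without it, Idh1 rose (log2 change 0.66, adjusted p = 0.0215) and Idh2 fell (log2 change -0.53, adjusted p = 0.00974). Over the 15 alternatives the adjusted p ranged from 0.0215 to 0.521 for Idh1 and from 0.00974 to 0.506 for Idh2, which also fell after quantile normalization (adjusted p = 0.0418).

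The ratio of Idh1 to Idh2 was 0.565 in control replicate 1, 0.267 and 0.342 in the other controls, and 0.679 and 0.709 across knockouts (exact permutation p = 0.2, 0.2 adjusted over the 4 ratios). The spread among controls, from 0.267 to 0.565, was wider than the step from control replicate 1 to the knockouts. The sum of Idh1 and Idh2 varied less, at 326, 355 and 355 FPKM across controls, against 320 and 319 FPKM across knockouts. Both knockout sums lay below every control sum. Control replicate 1 was also the control with the highest sums of mature neutrophil, monocyte and macrophage, erythroid and progenitor markers. Its sum of mast cell and basophil markers was the lowest of the controls. The part of these in the result was not tested.

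**Figure D2:**
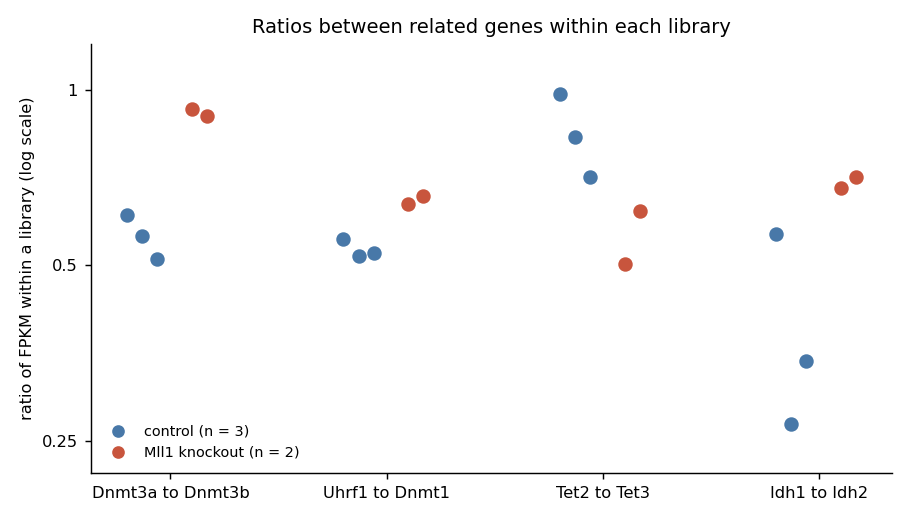
Ratio of FPKM of related genes within each library (vertical axis, log scale) for 3 controls (blue, replicates 1 to 3 from left to right) and 2 knockouts (red). The Dnmt3a to Dnmt3b ratio is 0.513 to 0.609 in the controls and 0.903 to 0.928 in the knockouts, while the control ratios of Idh1 to Idh2 spread from 0.267 to 0.565.

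Leaving out control replicate 1, the library that stood apart, gave 5 of the 10 genes called: Dnmt3l and Idh1 rose, and Dnmt3b, Tet1 and Idh2 fell. The share of all genes called was then 29.8%, with 11.9% that rose and 18.0% that fell. Without any one of the other libraries, none of the 10 genes was called in limma. The levels of the 10 genes had the order Idh2, Dnmt1, Idh1, Uhrf1, Dnmt3b, Dnmt3a, Tet3, Tet2, Tet1 and Dnmt3l in the controls, from 251 ± 37.9 to 2.36 ± 0.789 FPKM (SD, n = 3). Neighbours whose control values overlapped were Dnmt1 with Idh1 and Tet3 with Tet2. The order leaves out the second Tet1 row, so the place of Tet1 is uncertain. In the knockouts Idh1 stood above Dnmt1, and Dnmt3l, the lowest in the controls, stood above Tet2 and Tet1.

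**Figure D3:**
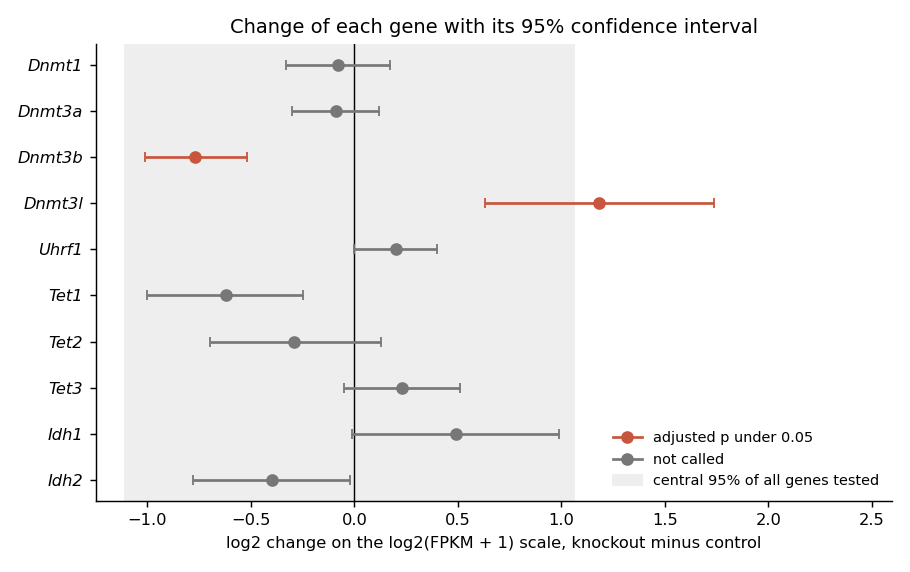
Log2 change of each gene (horizontal axis, difference of the group means of log2(FPKM + 1), above 0 where knockouts are higher) with its 95% confidence interval from limma, red where the adjusted p was under 0.05 and grey otherwise. The shaded band holds the central 95% of all genes tested, from -1.11 to 1.06; Dnmt3l (1.18) lies beyond it and Dnmt3b (-0.77) inside it.

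By a rule of likeness over the 5 libraries (the root mean square difference of log2(FPKM + 1) from the control mean), the tested genes most like Dnmt3b were Rcor2 (0.0188), Rere (0.0304) and Alg14 (0.0407). Rcor2 stood at 26.3, 29.6 and 29.5 FPKM across controls, against 16.5 and 15.8 FPKM across knockouts, close to Dnmt3b in level as well as in pattern. With 5 libraries and 11780 genes, near matches of this kind are a description.

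Among proteins that bind or steer DNMT and TET enzymes, 4 of 18 genes tested fell and none rose, beside 5.97% and 3.82% of all genes, and the list median was -0.054. Wt1, a zinc finger transcription factor known to bind TET2 and TET3, stood at 10.6, 7.66 and 8.09 FPKM across controls, against 0.903 and 0.419 FPKM across knockouts. The fall was 13.3-fold in mean FPKM, with a log2 change of -2.56 (SE 0.20, limma adjusted p = 0.00808). Cxxc5, of the CXXC zinc finger family that binds CpG, fell from 20.9 ± 1.76 to 11.1 ± 1.55 FPKM (adjusted p = 0.0225). Cdca7, which activates the remodelling enzyme HELLS, fell from 51.1 ± 3.52 to 38.2 ± 0.875 FPKM (adjusted p = 0.0492), and its relative Cdca7l from 46.8 ± 2.56 to 30.8 ± 1.57 FPKM (adjusted p = 0.0225). Hells itself was not called, at 40.4 ± 5.0 and 39.0 ± 1.36 FPKM (adjusted p = 0.838), in 3 controls and 2 knockouts. Cxxc5 and Cdca7l, like Gadd45a described next, overlap genes in GENCODE M21 whose levels were not analysed here, so their own levels are uncertain. The count of 4 became 1 without control replicate 2 or control replicate 3, 0 without either knockout replicate and 2 with no filter.

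The list of methyl-CpG readers holds whole gene families such as the Mbd genes, and not every member is a proven reader of the mark. None of its 9 genes tested was called in limma. At an unadjusted p under 0.05 there were 2 (beside 29.8% of all genes), and the median was -0.070. Zbtb33 (Kaiso), a zinc finger reader, stood at 9.80, 7.78 and 8.34 FPKM across controls, against 6.31 and 6.36 FPKM across knockouts (limma adjusted p = 0.0987). Its 2 knockout values lay below all 3 controls. Without control replicate 1, 1 gene of the reader list rose and 2 fell, beside 11.9% and 18.0% of all genes.

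Of the 13 base excision genes tested, which repair the products of TET oxidation or belong to the GADD45 family linked to demethylation, none was called and 2 had an unadjusted p under 0.05 (beside 29.8% of all genes), with a median of 0.096. Gadd45a, a stress-induced gene, stood at 23.9, 30.3 and 35.3 FPKM across controls, against 47.6 and 54.5 FPKM across knockouts (limma adjusted p = 0.0601), and its groups did not overlap. The glycosylase gene Neil1 stood at 4.72 ± 0.957 and 2.88 ± 0.0781 FPKM (adjusted p = 0.101). Tdg, the glycosylase that removes oxidised methylcytosine, stood at 3.29 ± 0.581 and 3.59 ± 0.113 FPKM (adjusted p = 0.675). Tdg was named after its values were seen; it has 2 rows of that symbol in the files, so its level is uncertain. Without control replicate 1, 1 gene of this list rose and 2 fell (beside 11.9% and 18.0% of all genes), and after median-ratio scaling 1 rose.

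The methyl donor genes, whose enzymes make and recycle S-adenosylmethionine, had no member called of 13 tested (3 at an unadjusted p under 0.05, beside 29.8% of all genes, with a median of -0.022). Ahcyl1, a relative of the enzyme that hydrolyses S-adenosylhomocysteine, stood at 50.0 ± 4.02 and 39.6 ± 0.281 FPKM (limma adjusted p = 0.0848), and Mat2b, the regulatory subunit of methionine adenosyltransferase, at 68.5 ± 5.13 and 83.2 ± 1.06 FPKM (adjusted p = 0.108). Without control replicate 1, 2 members rose and 4 fell, beside 11.9% and 18.0% of all genes. The sign of the median changed between alternatives, as it did for the 2-oxoglutarate list described next and for the readers.

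Of 23 genes that make or use 2-oxoglutarate, succinate, fumarate or 2-hydroxyglutarate, 1 fell and none rose, beside 5.97% and 3.82% of all genes, with a median of -0.029. D2hgdh, the mitochondrial enzyme that turns D-2-hydroxyglutarate back into 2-oxoglutarate, stood at 4.33, 5.45 and 4.41 FPKM across controls, against 2.67 and 2.63 FPKM across knockouts. It was 1.78-fold lower in the knockout mean (log2 change -0.64, SE 0.13, limma adjusted p = 0.0436). The call of this list was lost with no filter, after quantile normalization, and without any library other than control replicate 1. Without control replicate 1, 7 of 23 members fell, beside 18.0% of all genes.

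**Figure D4:**
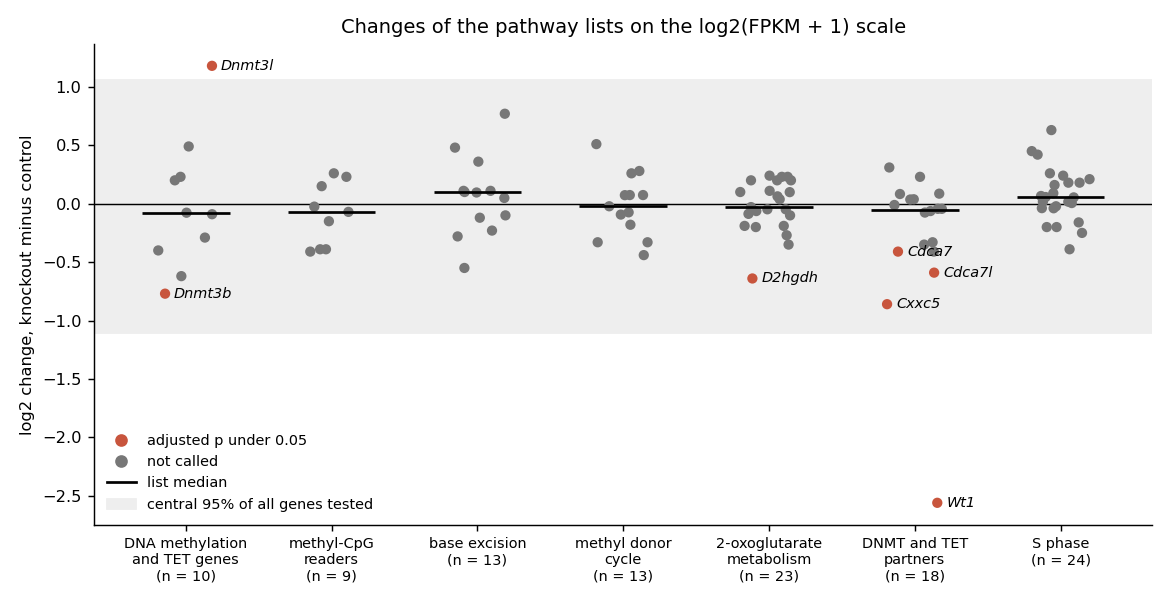
Log2 change of every tested gene of the pathway lists (vertical axis, difference of the group means of log2(FPKM + 1), above 0 where knockouts are higher), 1 point a gene, with a line at each list median. Called genes (red) are named: Dnmt3l and Dnmt3b among the 10 genes, D2hgdh, and Wt1, Cxxc5, Cdca7l and Cdca7, with Wt1 (-2.56) the lowest point and outside the shaded central 95% of all genes.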

How the data were processed

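The members and gene lists were chosen with earlier results of these data known. The authors deposited FPKM values, 1 per Ensembl gene and library, for 3 control and 2 Mll1 knockout libraries. Per the submitters' processing notes, the tools were GSNAP, CASAVA 1.8.2, Cuffdiff and SAMtools, with build mm9; annotation and use of strand in counting: not given in the sources used here. In 16 genes a library held 999999999, taken as a failed estimate, and these genes were left out; none is among the 10 genes.

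A filter of 1 FPKM or more in 2 or more libraries left 11780 of 31626 genes. Values of log2(FPKM + 1) went into limma 3.58.1 (R 4.3.3) with a trend on level, Benjamini-Hochberg adjustment over all genes tested and a call threshold of 0.05. Ratios within a library and Mll1 were tested by exact permutation of the 5 libraries over 10 splits. The limma step was tested on simulated data. Groups come from sample titles. Named were Mll1, the 10 genes, up to 6 called genes of each list (2 of smallest p where none was called) and 3 genes most like the member of smallest p; Hells, Tdg and cell type markers were named beside them, Hells and Tdg after their values were seen. For 1 gene taken by the rule, values are not reported here. Alternatives covered pseudocount, filter, scaling, trend, threshold, replicate block and each library left out. The 2 Tet1 rows summed and failed estimates as missing values were added after seeing the data. Absolute depth is unknown, so no counting interval is given.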

Additional observations from a re-analysis of the deposited data

How the results depend on the processing

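No log2 change of the 10 genes and no ratio changed direction under any alternative run. Over all genes tested, 1153 were called; the count was 497 with no filter (238 rose, 259 fell) and 2435 at an adjusted p under 0.1, and it ran from 0 without knockout replicate 2 (in limma, with 1669 at an unadjusted p under 0.05) to 3516 without control replicate 1. Rises made up 39.0% of the 1153 calls and 49.0% after median-ratio scaling (597 rose, 621 fell). Of the 10 genes, 2 were called, and 1 with no filter or at a mean of at least 5 FPKM (which leaves out Dnmt3l and Tet1). The count was 3 after quantile normalization or at an adjusted p under 0.1, and from 0 to 5 with a control library left out. Of the pathway lists, base excision had 1 call after median-ratio scaling and the methyl donor cycle 1 after quantile normalization. The 2-oxoglutarate list had 0 with no filter, at a mean of at least 5 FPKM (which leaves out D2hgdh) and after quantile normalization. The partners had 2 with no filter, and the S-phase list 2 after median-ratio scaling and 1 after quantile normalization. With a library left out, counts ran from 0 to 3 in readers, base excision and S phase, from 0 to 6 in the methyl donor cycle and the partners, and from 0 to 7 in the 2-oxoglutarate list. Where a knockout library is left out, the lone one is assumed to vary like the controls.

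With the replicate number as a block, 55 genes were called (12 rose, 43 fell), 0 of the 10 genes, 0 of the 2-oxoglutarate list and 1 partner. The deviations of same-numbered libraries correlated at 0.037 and 0.012. The deviations of 2 knockouts from their mean mirror each other, so these values cannot decide whether the numbers pair the libraries. The main fit took no pairing. The unknown depth limits most the genes of low level, Tet1 and Dnmt3l.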
